A study of Mus musculus with 12 samples.

Results

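The core circadian clock genes examined here were Arntl, Clock, Per1, Per2, Per3, Cry1, Cry2, Nr1d1, Nr1d2 and Dbp, 10 of the 17902 annotated genes with a listed peak. Every listed peak that overlapped one of them by at least 1 nt on its strand was taken, with no threshold, which gave 1614 of the 1426686 peaks of the 8 lists. The data were chimeric eCLIP libraries of tibialis anterior, a hindlimb muscle, in which AGO2, the protein that carries microRNAs, is cross-linked to RNA and immunoprecipitated. Wild-type (WT) muscle was compared with muscle lacking mir-486 (KO), a muscle microRNA whose hairpin was deleted by CRISPR. Each of 2 library sets held 1 WT and 1 KO library of total immunoprecipitated RNA, each with its own input library. All mice were 6 months old and, per the methods, male. WT samples are labelled C57BL/6 and KO samples FVB N/J, so genotype and labelled strain cannot be told apart, while the methods describe a KO line backcrossed to C57BL/6J. The methods give several muscles per genotype, processed in duplicate. Which muscles entered which library, and the hour at which they were taken, is not given in the sources used here. In whole muscle, fewer cells of a type and less RNA per cell cannot be told apart.

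The clock is a feedback loop of transcription that runs in nearly every cell, skeletal muscle included. ARNTL (BMAL1) and CLOCK form the activator of the positive limb and switch on the Per, Cry and Nr1d genes. PER and CRY proteins then inhibit that activator, and the NR1D1 and NR1D2 (REV-ERB) receptors repress Arntl, so transcripts of the 2 limbs peak at different hours. Dbp, a transcription factor driven by the same activator, is a common readout of the clock's output.

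Peaks were called by the authors in each immunoprecipitated library, and the log2 folds of single peaks given here are the authors' deposited values. They exist over input (4 lists) and between genotypes within a set (4 lists), as WT over KO at the peaks of the WT library and as KO over WT at the peaks of the KO library. A gene level here is the mean of the median log2 WT-over-KO fold at its WT peaks and of the same median, sign turned, at its KO peaks, so that positive values mean WT was higher. With 1 WT and 1 KO library in a set, no test between genotypes was made. Over both sets an exact two-sided permutation test could not give a p under 0.333. Values are therefore given by set, with the mean ± SD over n = 2 sets, a spread that may be technical.

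Relative to WT, the KO library had a depth of 1.12 in set 1 and of 1.09 in set 2. Read numbers were recovered from the deposited folds and p-values and were fixed by a p-value for 83.4% of the 808 clock peaks of the direct lists, while for the others the smallest reads that gave the fold were taken. The median was 21.5 reads over both libraries, and 245 peaks had under 10. At the Mir486 locus the WT libraries had 2 and 4 peaks over input, and both KO libraries had 0. All 10 skeletal muscle fibre markers had peaks in every library. In set 1 their median level was 0.74, with 9 of 10 higher in WT, and in set 2 it was -0.04, with 4 of 10 higher in WT. In set 2, 5 of 5 fibroblast markers were higher in WT (median 0.40, 286 listed peaks in WT and 234 in KO), and 4 of 4 B cell markers had peaks in WT (15 in all) and 0 in KO. In set 1, B cell markers had 0 peaks in either library. Macrophage markers with a level were higher in WT in both sets (2 of 2, median 0.52, and 3 of 3, median 0.95), as were red blood cell markers (1 of 1, 2.05, and 2 of 2, median 1.33), while 1 of 4 endothelial markers was higher in WT in each set. The part of these differences in the clock gene levels was not tested.

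AGO2 sites on clock transcripts were first read as sequence. Matches to 18 microRNA families were searched, with mature sequences from the RefSeq table of GRCm38.p6, of 19 families listed. The remaining family, miR-486, was not searched. The following are the families whose seed (positions 2 to 8, in capitals) found a match in or within 25 nt of a 3′ UTR peak enriched over input, in at least 2 libraries.
mmu-miR-206-3p, of the miR-1 family: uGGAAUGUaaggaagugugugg
miR-29a-3p: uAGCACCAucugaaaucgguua
miR-30a-5p: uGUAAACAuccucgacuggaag
miR-24-3p: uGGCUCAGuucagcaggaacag
miR-22-3p: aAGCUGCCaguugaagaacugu
miR-26a-5p: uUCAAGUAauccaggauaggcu
miR-27a-3p: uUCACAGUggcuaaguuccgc

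The 8 matches lay in Per1, Per2, Per3 and Nr1d2, the only clock genes with a 3′ UTR peak enriched over input, so no other clock gene could appear here. Each is printed as 30 nt of the transcribed strand of RefSeq GRCm38.p6, with the 7 nt complementary to the seed in capitals, because these matches lay in or within 25 nt of clock gene peaks enriched in more than 1 library. The miR-27 match in Nr1d2 lay between enriched peaks, not inside one, and the miR-24 match in Per2 lay wholly inside an enriched peak in WT of set 2 alone.
Per1, miR-29, chr11:69109823-69109852 (+): ccatggagtcccTGGTGCTgcccctcaggt
Per2, miR-24, chr1:91416167-91416196 (-): tctattttaaaCTGAGCCttctttttaatg
Per2, miR-30, chr1:91416251-91416280 (-): ttttgtgaatcTGTTTACaagatgccaagc
Per3, miR-22, chr4:151005207-151005236 (-): gaagttcctgtGGCAGCTgcctttcacagg
Per3, miR-1 family, chr4:151005311-151005340 (-): ctgatggtaagACATTCCagctttctctca
Per3, miR-29, chr4:151005336-151005365 (-): tttgtacagcaTGGTGCTtctcttcctgat
Per3, miR-26, chr4:151005421-151005450 (-): tcccactagaaTACTTGAagaacttctgtc
Nr1d2, miR-27, chr14:18205858-18205887 (-): caatattttaaACTGTGAagaactttatca

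Per2 carried the miR-24 and miR-30 matches within the same stretch of its 3′ UTR, and Per3 carried 4 matches within 1 peak. The windows of the Per3 miR-1 family and miR-29 matches overlap by a few bases. The miR-30 match in Per2, the miR-1 family and miR-26 matches in Per3 and the miR-27 match in Nr1d2 were followed by an A, the base that lengthens a seed match to 8 nt. A match is a description of the sequence and does not show which microRNA was bound. Over the 4 library lists, 60 of 137 clock gene 3′ UTR peaks (43.8%) held a 7-nt match to one of the 18 families within the peak extended by 25 nt on each side, beside 31.8% of all 3′ UTR peaks. The share in clock genes was 48.1% and 59.4% in the WT libraries of sets 1 and 2 and 29.7% and 41.5% in the KO libraries, beside 34.3%, 33.0%, 26.8% and 32.8% of all 3′ UTR peaks. Clock gene 3′ UTR peaks were longer than all 3′ UTR peaks in 3 of 4 libraries, with medians of 85 nt and 75 nt in WT of set 1, 84 nt and 69 nt in KO of set 1 and 141 nt and 103 nt in WT of set 2, and shorter in KO of set 2 (88 nt and 98 nt). The part of peak length in these shares was not tested. Of the 28 distinct matches in clock gene peaks, 12 were covered in all 4 libraries.

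Enrichment over input was called at a log2 fold of at least 3 with a −log10 p of at least 3. Per3 and Nr1d2, which encode a period protein and a REV-ERB receptor, had an enriched peak in all 4 libraries, whereas 3.93% of the 10977 genes with a peak in every library did. Enriched clock peaks of set 1 numbered 14 of 129 (WT) and 7 of 155 (KO), against 3.57% and 0.848% of all peaks of those lists. Those of set 2 numbered 8 of 223 (WT) and 8 of 299 (KO), against 1.42% and 1.23%. The share of enriched peaks among clock genes, 10.9% and 4.52% in set 1 and 3.59% and 2.68% in set 2, was above that of all peaks in each library. Adjoining peaks of a site were counted apart, as in Per1, Per2 and Per3, so these counts exceed the number of sites. In set 2, Per3 held 5 of the 8 enriched clock peaks in each library.

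The Nr1d2 site lay in its 3′ UTR (chromosome 14, 18205888 to 18206136, minus strand), beside the miR-27 match. In set 1 its log2 fold over input was 4.58 (WT) and 3.93 (KO), from 314 and 140 immunoprecipitated reads against 6 and 4 input reads. In set 2 it was 3.48 (WT) and 3.46 (KO), from 580 and 559 immunoprecipitated reads. Set 1 was thus above set 2, and WT was above KO in both sets, by little in set 2.

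The Per3 site (chromosome 4, 151005168 to 151005497, minus strand) had log2 folds over input of 3.70 (WT) and 3.05 (KO) in set 1. In set 2 the order was turned, with 2.85 in WT, the one library below the threshold, and 3.26 in KO. Every listed Per3 peak also lay within the annotated span of Camta1 on the same strand, so assignment of its intronic peaks to Per3 is uncertain.

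The Per2 site (chromosome 1, 91416076 to 91416359, minus strand) was enriched in 3 libraries. Per2 encodes the period protein whose turnover sets the pace of the clock. In set 1 the log2 fold was 4.37 (WT) and 1.80 (KO), from 45 and 16 immunoprecipitated reads against 1 and 2 input reads. In set 2 it was 4.52 (WT) and 3.56 (KO), against 2 input reads in each library. The KO library of set 1 was the low one, and WT was above KO in both sets, on very few input reads.

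Per1 had its strongest site in the 3′ UTR (chromosome 11, 69109692 to 69109896, plus strand), with 4.38 (WT) and 3.01 (KO) in set 1. In set 2 the folds there were 2.85 and 2.81. The strongest Dbp site was in coding sequence, on chromosome 7 from 45708267 to 45708427. It had 4.37 in WT of set 1 and between 1.52 and 1.99 in the other libraries, so that 1 library alone was enriched there. The sole enriched site within Clock, at 3.49 in KO of set 2, overlapped Ube2n-ps1, a processed pseudogene in the same orientation, so its assignment to Clock is uncertain, and it is 1 of the 8 enriched clock peaks of that library. Arntl, Cry1, Cry2 and Nr1d1 had 0 enriched peaks in any library, and the highest folds over input of Cry2 and Nr1d1 were 3.12 and 3.04, both in WT of set 1 and both short of the p threshold.

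**Figure D1:**
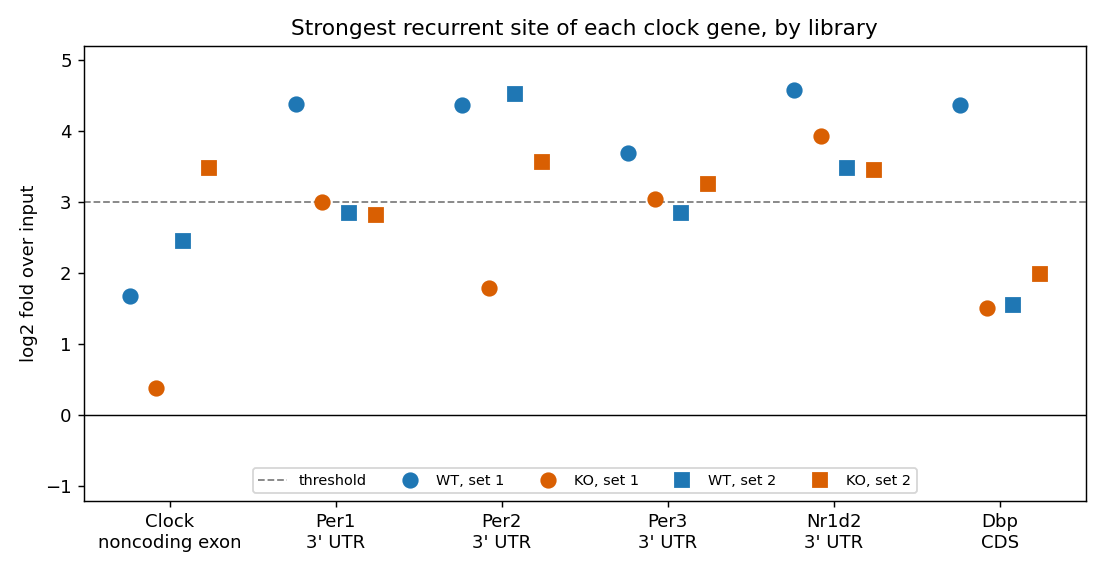
log2 fold over input (vertical axis) at the site enriched in the most libraries of each clock gene that had one, with 1 point per library (circles set 1, squares set 2, blue WT, orange KO) and the threshold of 3 as a dashed line. Nr1d2 is above the line in all 4 libraries, Per2 in 3, and Dbp in WT of set 1 alone.

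Between the genotypes, 6 of 10 clock genes had a level above 0 in set 1, against 64.8% of the 7280 genes with a level, and 6 of 10 in set 2, against 58% of 10742 genes. The median level of the clock genes was 0.21 in set 1 and 0.02 in set 2, close to the medians of all genes, 0.16 and 0.05. A level above 0.5 was found for Per1, Per2 and Dbp in set 1 (26.8% of all genes) and for Nr1d1 and Dbp in set 2 (6.94%). A level below -0.5 was found for Per3 and Nr1d1 in set 1 (6.95% of all genes) and for Arntl in set 2 (3.1%). The sign was the same in both sets for 4 genes, Per3, Cry1, Nr1d2 and Dbp, against 51.1% of the 7155 genes with a level in both sets. Of these, Dbp alone kept its sign in both sets under every alternative setting described at the end. Peaks leaned to the library in which they were called. Of all WT peaks, 80.4% in set 1 and 67.1% in set 2 were higher in WT. Of all KO peaks, 67.5% and 62.6% were higher in KO, and the peak counts of single genes below stand beside these shares.

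**Figure D2:**
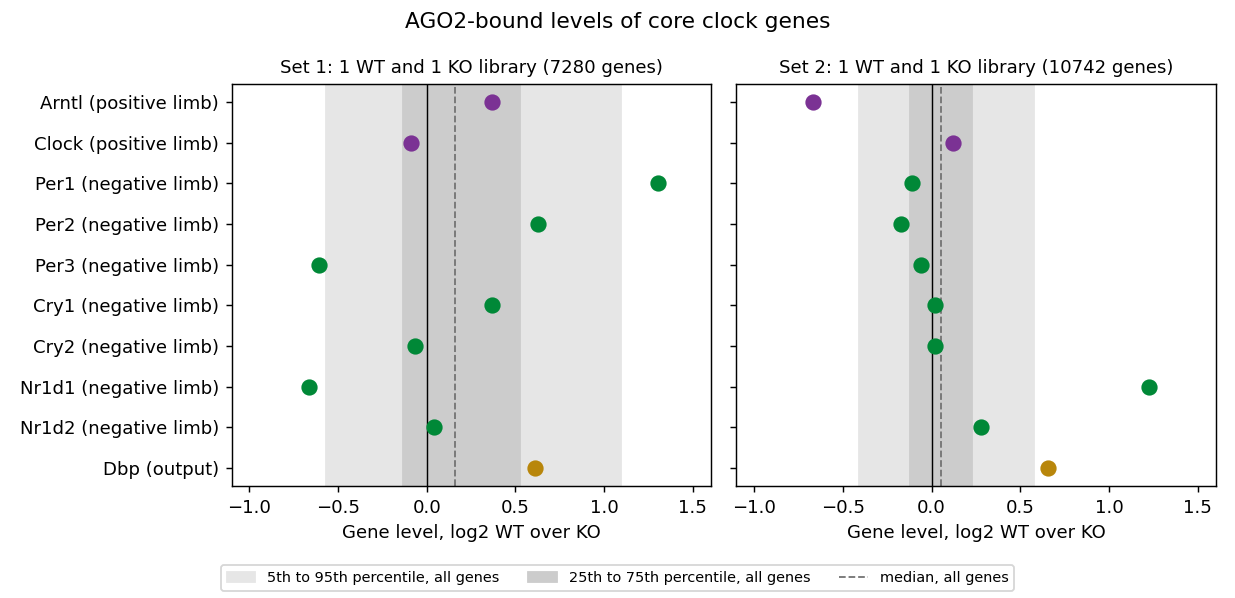
Gene level (horizontal axis, log2 WT over KO) of the 10 clock genes in each set, 1 point per gene, over grey bands for the 5th to 95th and 25th to 75th percentiles of all genes and a dashed line at their median. Per1 stands highest in set 1 at 1.30, Nr1d1 highest in set 2 at 1.22 and Arntl lowest in set 2 at -0.67.

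In the positive limb, Arntl encodes BMAL1, the activator whose loss stops the clock. It had 13 WT and 7 KO peaks in set 1 and 24 WT and 67 KO peaks in set 2. Its level was 0.37 in set 1 and -0.67 in set 2, the latter 1.59-fold higher in KO and at percentile 1.17 of all genes. The peaks were thin and mostly intronic: in KO of set 2, 51 of 67 lay in introns and 49 had under 10 reads. In set 1, 0 of the 13 WT peaks overlapped a KO peak, whereas 47.4% of all WT peaks did, and the peaks of each library were higher in that library, with medians of 2.16 (WT over KO, WT peaks) and 1.43 (KO over WT, KO peaks). In set 2 these medians were 0.12 and 1.46, so the negative level came from the KO peaks. At the KO peaks of set 2, the summed reads were 386 (KO) and 177 (WT).

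Clock, the partner of BMAL1, had levels of -0.09 in set 1 and 0.12 in set 2, within the middle 50% of all genes in both. It had 16 WT and 14 KO peaks in set 1 and 32 WT and 31 KO peaks in set 2, and 15 of the 16 WT peaks of set 1 were exonic. Its median folds over input ran from 0.38 to 0.83 in the 4 libraries.

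Among the repressors, Per1, an early light- and hormone-responsive period gene, differed most between the genotypes in set 1. Its level was 1.30, 2.47-fold higher in WT and at percentile 97.6 of all genes, and -0.11 in set 2, at percentile 26.4. In set 1, 20 of 21 WT peaks were higher in WT, with a median of 1.65, and 14 of 20 KO peaks were also higher in WT, with a median of -0.96 for KO over WT. In set 2, 8 of 25 WT peaks and 10 of 34 KO peaks were higher in WT, so both lists leaned slightly to KO. The summed reads of its WT peaks in set 1 were 1119 (WT) and 269 (KO). In set 2 these sums were 1252 and 1488.

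Both clock peaks past the thresholds for WT over KO belonged to Per1 in set 1, 2 of 129 clock peaks in a list where 0.469% of peaks passed. One lay in coding sequence on chromosome 11 from 69102155 to 69102280, with a log2 fold of 3.16 from 160 WT and 20 KO reads. The other lay in the 3′ UTR from 69109784 to 69109896, over the miR-29 match, with 3.18 from 243 WT and 30 KO reads. In set 2 the peaks at these places had medians of -0.47 and 0.02, lower in WT at the first and close to 0 at the second. In the opposite direction 1 of 155 clock peaks of set 1 passed, an intronic Per3 peak from 151007182 to 151007311 with 3.06 from 28 KO and 3 WT reads, against 0.179% of all peaks. The set 2 peaks that overlapped it were higher in WT, at 0.67 (WT over KO, WT peak) and -0.41 (KO over WT, KO peak). In set 2, 0 clock peaks passed in either direction, where 0.0192% of WT-over-KO and 0.0144% of KO-over-WT peaks did.

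Per2 had a level of 0.63 in set 1 and -0.17 in set 2. Its 16 WT peaks of set 1 had a median of 1.32, and its 23 KO peaks of that set stood near 0, with a median of 0.06 for KO over WT. Per3, the period gene that the clock can run without, had -0.61 in set 1 and -0.06 in set 2. Of its 29 KO peaks in set 1, 23 were higher in KO, and 8 of 14 WT peaks were too. With 3′ UTR peaks alone, the Per3 level of set 1 was 0.07, opposite in sign.

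The cryptochromes, which hold the activator in check, showed small levels. Cry1 had 0.37 in set 1 and 0.02 in set 2, from as few as 3 KO and 9 WT peaks in set 1, 11 of which had under 10 reads. Its WT peaks did not overlap its KO peaks in set 1, and 1 of 12 did in set 2. Cry2 had -0.06 and 0.02, with 11 to 18 peaks a library and matches to let-7, miR-17, miR-181 and miR-30 in 3′ UTR peaks of all 4 libraries.

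Nr1d1, which encodes REV-ERBα, the repressor of Arntl transcription, was the gene whose sets differed most. Its level was -0.66 in set 1, 1.58-fold higher in KO and at percentile 2.94 of all genes. In set 2 it was 1.22, 2.34-fold higher in WT and at percentile 99.7. In set 1, 14 of 16 KO peaks and 7 of 9 WT peaks were higher in KO. In set 2, all 10 WT peaks (0.92 to 2.15 for WT over KO) and all 10 KO peaks (-2.08 to -0.31 for KO over WT) were higher in WT. Nr1d1 was the 1 clock gene of which every peak of both lists was higher in WT, as in 2.13% of all genes in set 2 and 0.858% of the 8040 genes with at least 15 peaks there. In set 1 this held for 0 clock genes, against 3.35% of all genes and 1.08% of the 4440 with at least 15 peaks. Reads summed over the WT peaks of set 2 were 938 in WT and 443 in KO, and over the KO peaks 769 in WT and 358 in KO. Of the set 2 peaks, 5 (WT) and 8 (KO) lay in coding sequence, 3 and 2 in the 5′ UTR, and 2 and 0 in the 3′ UTR. None had under 10 reads in either set. Thra overlaps Nr1d1 on the opposite strand, and the peaks are stranded.

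Nr1d2, its paralogue, had 0.04 in set 1 and 0.28 in set 2. In set 2, 14 of 16 WT peaks and 15 of 19 KO peaks were higher in WT, each by little, with medians of 0.26 (WT over KO, WT peaks) and -0.30 (KO over WT, KO peaks).

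Dbp was the one gene whose mean level exceeded its SD over the sets. Its level was 0.61 in set 1 and 0.65 in set 2, 0.63 ± 0.03 (SD, n = 2), or 1.53-fold and 1.57-fold higher in WT, at percentiles 79.1 and 96.8 of all genes. The small SD belonged to this measure: from summed reads, chosen after seeing the data, the levels were 0.97 and 0.55. Over the alternatives the Dbp level ran from 0.45 to 0.97 in set 1 and from 0.48 to 0.82 in set 2. All 7 WT peaks of set 1 and 10 of 11 of set 2 were higher in WT. Of the KO peaks, 9 of 10 in set 1 and 7 of 7 in set 2 were higher in WT. Summed reads of the WT peaks in set 1 were 559 (WT) and 321 (KO). In set 2 these sums were 543 and 405. The peak at its strongest site had 1.70 in set 1, from 271 WT and 93 KO reads, and 0.24 in set 2, from 140 and 129. The lead of WT in set 1 was thus widest in that coding exon, and in set 2 it was spread over both ends of the transcript.

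**Figure D3:**
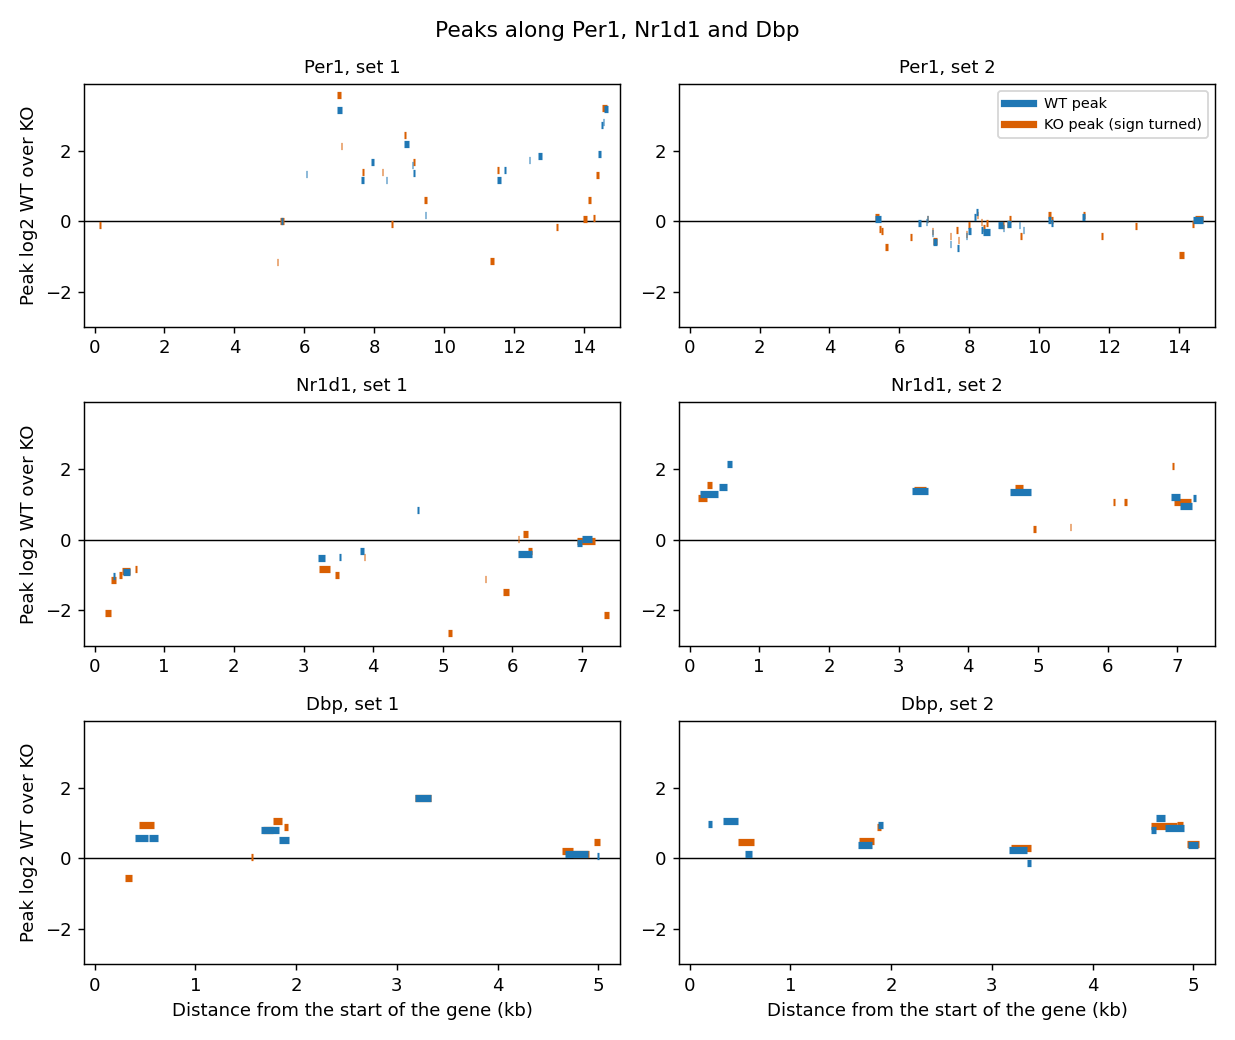
Peaks of Per1, Nr1d1 and Dbp in the direct lists, drawn to scale by distance from the start of the gene (horizontal axis, kb) and log2 WT over KO (vertical axis), with WT peaks in blue and KO peaks, sign turned, in orange. Nr1d1 peaks lie mostly below 0 in set 1 and all above 0 in set 2, Dbp peaks mostly above 0 in both, and Per1 peaks up to 3.57 in set 1 and near 0 in set 2.

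In the order of the means over the sets, Dbp (0.63) was followed by Per1 (0.60 ± 0.999), Nr1d1 (0.28 ± 1.33), Per2 (0.23 ± 0.57), Cry1 (0.19 ± 0.25), Nr1d2 (0.16 ± 0.17), Clock (0.02 ± 0.15), Cry2 (-0.02 ± 0.06), Arntl (-0.15 ± 0.73) and Per3 (-0.33 ± 0.39). No gene differed from its neighbour in this order by more than the larger of the 2 SDs.

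**Figure D4:**
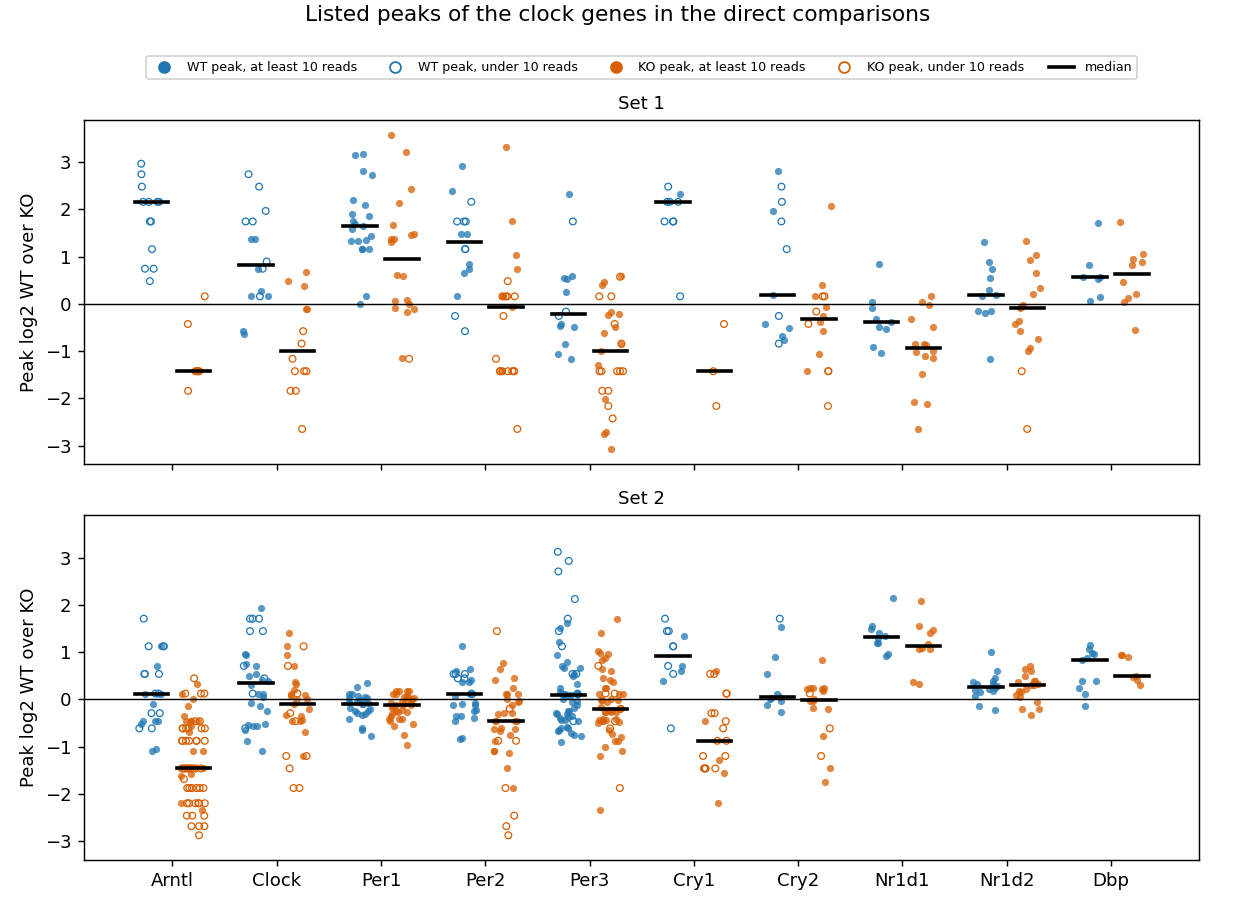
Every listed clock gene peak of the direct lists, by gene (horizontal axis) and log2 WT over KO (vertical axis), with WT peaks in blue, KO peaks, sign turned, in orange, open circles for peaks under 10 reads and bars for medians. Arntl and Cry1 are mostly open circles, with all their WT peaks above 0 and all but 1 of their KO peaks below 0 in set 1, whereas all 20 Nr1d1 peaks of set 2 are filled and above 0.

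Whether the limbs moved apart was asked of the mean level of Arntl and Clock minus that of the 7 negative limb genes. In set 1 the means were 0.14 and 0.14, a difference of -0.01. In set 2 they were -0.27 and 0.17, a difference of -0.45, with Arntl below every negative limb gene (lowest -0.17) and Clock at 0.12 within their range. The mean difference was -0.23 ± 0.31 (SD, n = 2), smaller than the spread between the sets. WT peaks alone turned it to 0.32 and KO peaks alone made it -0.77. With 3′ UTR peaks alone, Clock stood for the positive limb, and Arntl, Cry1 and Nr1d1 had too few peaks. The limb difference was then -0.63 in set 1 and 0.31 in set 2, the latter opposite in sign to the difference over all peaks. Per1 had a 3′ UTR level in set 1 alone (1.86), so the genes behind these values are not the same. Between single genes, Arntl minus Dbp was -0.24 in set 1 and -1.32 in set 2, and Arntl minus Nr1d1 was 1.03 and -1.89, opposite in sign. Arntl minus Per1 was -0.94 and -0.56, with a mean of -0.75 ± 0.27 (SD, n = 2), beyond its SD, although both genes differed in sign between the sets. The negative limb was itself not of 1 direction, with Per1 and Nr1d1 at opposite ends in set 1.

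Of 23 other clock genes (the paralogues and receptors of the positive limb, output factors, kinases and ubiquitin ligases of the period proteins, and metabolic inputs), 16 had a level in set 1 and 17 in set 2. In set 1, 7 were higher in WT and 9 in KO, with levels from -0.72 to 0.46 and a median of -0.18. In set 2, 7 were higher in WT and 10 in KO, with levels from -0.49 to 0.49 and a median of -0.06. Both medians lay below those of all genes, and 6 of the 16 with a level in both sets kept their sign. None reached 1 or -1.

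The reads behind the folds over input allowed the input libraries to be compared as well, at WT and KO peaks of a set that covered at least 50% of each other, a comparison chosen after the values were seen. For Nr1d1 in set 2, 2 such pairs gave a log2 WT over KO of 0.99 in immunoprecipitated reads per nt and of 1.29 in input reads per nt (59 and 23 input reads), so both libraries were higher in WT. For Dbp in set 2, 4 pairs gave 0.48 and 0.37. In set 1 the 4 Dbp pairs gave 0.98 in immunoprecipitated reads and -1.66 in input reads (22 in WT and 62 in KO), with the input lower in WT at each pair. For Per1 in set 1, 6 pairs gave 2.44 and 0.42 (31 and 21 input reads), and in set 2 13 pairs gave -0.31 and -0.41. Nr1d2 had 0.69 and -0.60 over 8 pairs in set 1, and 0.11 and 0.04 over 9 pairs in set 2. For Nr1d1 in set 1, 2 pairs gave 0.33 and -0.95 (13 and 40 input reads). The first was opposite in sign to its gene level there of -0.66, but came from 174 WT and 233 KO immunoprecipitated reads. Reads were divided by the length of each library's own peaks, so the sign of these differences also depends on peak length. The immunoprecipitated difference per nt also went against the gene level for Clock in both sets, Per2 in set 2 (0.44) and Per3 in set 1 (0.02). The WT and KO reads behind these were 27 and 25 for Clock in set 1 and 296 and 309 in set 2. For Per2 they were 263 and 238, and for Per3 181 and 205. The part of peak length in these signs was not tested. Per2 had 1.21 and 0.71 in set 1, and Cry2 -0.93 and -1.61, while Clock had -0.08 and 0.38 in set 2. For Arntl in set 2, 6 pairs gave -0.49 and -0.92 (15 and 21 input reads). Immunoprecipitated over input, Arntl thus had 0.43 there, opposite in sign to its gene level of -0.67. Over all clock genes with pairs, the immunoprecipitated and input differences had the same sign for 3 of 8 in set 1 and for 8 of 9 in set 2.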

How the data were processed

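Chimeric eCLIP was performed in tibialis anterior muscle of WT and mir-486 KO mice. The submitters' processing notes name cutadapt, UMI-tools, STAR and GRCm38. Per the methods, the authors called peaks with Clipper and normalized them to a second library. The deposited lists give, per peak, a log2 fold computed by the authors between 2 libraries and a −log10 p-value, as the authors computed it (at most 400). Absolute depth is unknown. The deposited folds and p-values served to describe peaks. Direct lists map to pairs of libraries, over-input lists to single samples by title. Libraries enriched for miR-486 were not used here.

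Genes and regions (by peak midpoint) came from GENCODE M21, where the labels name a later release of the same assembly. Overlaps used bedtools 2.31.1, and other steps Python 3.11.15, pandas 2.3.3 and pysam 0.24.0. A gene level needed at least 3 peaks in each direct list of a set. Folds fell on log2 ratios of whole reads plus 1 depth constant per list: for between 98.4% and 99.7% of sampled peaks with a p-value, whole reads gave the fold (within 1e-07) and p (within 2%). With the constant moved by 0.05, at most 0.198% did. Where 2 lists fixed the reads of a clock peak, 90.6% gave the same number. Otherwise the smallest fitting reads were taken. Adjoining peaks can share reads, and a read count of 1 in the second library may stand for 0.

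Named were all 10 clock genes, 23 other clock genes (as counts unless their level passed 1 or -1 with the same sign in both sets), the most recurrent enriched site per gene, and every peak past the thresholds in a direct list. The members, lists and rules were chosen with earlier results of these data known. Alternatives were other peak subsets, centres, thresholds and seed words, and summed reads, the last chosen after seeing the data. Functions were tested on simulated data.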

Additional observations from a re-analysis of the deposited data

How the results depend on the processing

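No paired analysis was possible because no test between genotypes was made, with or without a block. Every gene level is already a difference between WT and KO within a set. The limits are 1 library per genotype and set, thin peaks, which leave Arntl and Cry1 least certain, and levels in which AGO2 binding and RNA abundance cannot be told apart.

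Per1 in set 1, Nr1d1 in both sets and Dbp in both sets kept their sign under every alternative that gave them a level (3′ UTR peaks alone gave Nr1d1 and Dbp none). The paired peaks of Nr1d1 in set 1 had the opposite sign in immunoprecipitated reads per nt, from 174 WT and 233 KO reads. Of 262 gene levels under an alternative, 203 moved by less than the SD over the sets. Levels beyond 0.5 changed sign in 4 cases: Arntl in set 2 with WT peaks only (0.12), Per2 in set 1 with KO peaks only (-0.063), and Per3 in set 1 with 3′ UTR peaks only (0.067) or with summed reads of exonic peaks (0.14, chosen after seeing the data). Among levels nearer 0, Clock in set 1 kept its sign in 6 of 14 alternatives, Cry2 in set 1 in 7 of 14 and Cry1 in set 2 in 8 of 13. Per3 in set 2 kept its sign in 10 of 13 and Nr1d2 in set 1 in 11 of 14, while Per1 and Nr1d2 in set 2 kept theirs in all. Some alternatives could not move a level: a minimum of 1 or 5 peaks moved none, though a minimum of 5 left Cry1 without a level in set 1. Leaving out peaks shared with another gene moved Clock and left Per3 without a level, because every Per3 peak lay within Camta1. The limb difference was then -0.12 in set 1 and -0.46 in set 2. The SD was also wide for Per1 (0.999) and Nr1d1 (1.33), so the 203 is no measure of how firm the levels are. KO peaks only gave 2 genes higher in WT in set 1 and 3 in set 2, where WT peaks only gave 8 and 9. The positive minus negative limb difference was -0.77 with KO peaks only and 0.32 with WT peaks only. Each set alone gave a limb difference of -0.01 or -0.45, and with 3′ UTR peaks only -0.63 or 0.31, with Per1 included in set 1 alone. At a log2 fold of at least 1, 5 genes were enriched over input in all 4 libraries, and 11 and 7 WT-over-KO peaks passed in sets 1 and 2, and 4 KO-over-WT peaks in set 1. At a fold of at least 4, 0 genes were enriched in all 4 libraries and 0 peaks passed in either direction of set 1, and a −log10 p of at least 5 left 0 KO-over-WT peaks there. The 8-nt seed match left 32 clock gene 3′ UTR peaks with a match (23.4%, beside 13.3% of all), and peaks enriched over input 13 of 19 (68.4%, beside 60.1%). The cause of these changes was not tested.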
